A study of Mus musculus with 26 samples.

Results

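The interferon-stimulated effector genes described here are 35 genes, chosen by symbol from a list of genes that interferon is known to induce. All 35 were among the 15249 genes of the counts table. The list was made with earlier results of these data known. Its counts and the shares over all genes beside them are therefore descriptions and not a test of an independent set. Their RNA was measured in the left ventricle of mice of the C57BL6 strain in 26 libraries of 4 genotypes. Mst1Gal3 (5 libraries) carried both Mst-1 overexpression and the galectin-3 knockout. MstTg (7 libraries) carried Mst-1 overexpression alone, Gal3Ko (8 libraries) the galectin-3 knockout alone, and wt (6 libraries) was wild type. Mst-1 is a kinase of the Hippo pathway (gene Stk4), and its overexpression serves as a mouse model of dilated cardiomyopathy. Galectin-3 (gene Lgals3) is a secreted lectin that binds carbohydrates, and the design asks what its loss changes in these hearts. The promoter and cell type that drive the transgene, the nature of the deletion, and the age and sex of the mice are not stated in the labels. The labels do not say that each replicate was a separate animal, so the p-values measure only the spread between these libraries, which may be technical.

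Type I interferons bind a receptor at the cell surface whose kinases phosphorylate transcription factors of the STAT family. With IRF9 these form a complex, ISGF3, that binds the interferon-stimulated response element in the promoters of its target genes. The proteins made from those genes bind foreign RNA, block translation, conjugate the ubiquitin-like protein ISG15, modify proteins with ADP-ribose or act at membranes, and in the heart they are best known from viral myocarditis.

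Promoter windows of 300 bases, from 250 before to 50 after an annotated start, were read from RefSeq (build GRCm38.p6) for 28 of the 35 genes. Rtp4, Parp9, Parp14, Ifi27, Tor3a, Usp18 and Parp10 had no entry. The letters GAAANNGAAA, the core of the interferon-stimulated response element, were searched on both strands. They were found in the windows of 9 of the 28 genes (32.1%), against 1079 of the 27025 genes of the whole promoter table (3.99%) and 399 of the 10500 that were also in the counts table (3.80%). The 9 genes were Ifit1, Ifit3, Isg15, Rsad2, Trim30a, Bst2, Eif2ak2, Ddx60 and Ifitm3. A letter match is a description of sequence and not a measured binding site. Stretches of 6 of these genes are printed 5′ to 3′ on the strand of the gene as examples of overlapping matches, separate matches and a match after the start, with every base covered by a match in capitals. A match on the opposite strand is in capitals as its reverse complement.
Ifit1 (chr19:34640765-34640833 on the plus strand): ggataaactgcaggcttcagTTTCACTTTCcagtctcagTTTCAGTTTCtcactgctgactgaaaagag
Ifit3 (chr19:34583353-34583436 on the plus strand): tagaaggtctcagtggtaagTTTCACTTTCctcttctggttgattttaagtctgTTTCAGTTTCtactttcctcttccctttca
Isg15 (chr4:156200855-156200916 on the minus strand): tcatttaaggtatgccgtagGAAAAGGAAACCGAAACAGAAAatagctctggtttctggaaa
Bst2 (chr8:71537567-71537622 on the minus strand): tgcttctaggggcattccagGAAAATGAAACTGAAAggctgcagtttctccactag
Eif2ak2 (chr17:78882525-78882574 on the minus strand): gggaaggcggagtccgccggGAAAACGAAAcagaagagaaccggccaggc
Ddx60 (chr8:61928014-61928097 on the plus strand): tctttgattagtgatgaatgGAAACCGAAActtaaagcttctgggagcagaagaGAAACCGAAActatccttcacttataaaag
Isg15 held 3 overlapping matches in 1 run of capitals and Bst2 held 2. Ifit1, Ifit3 and Ddx60 held 2 separate matches each, and Eif2ak2 held 1 that lay just after its start.

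**Figure D1:**
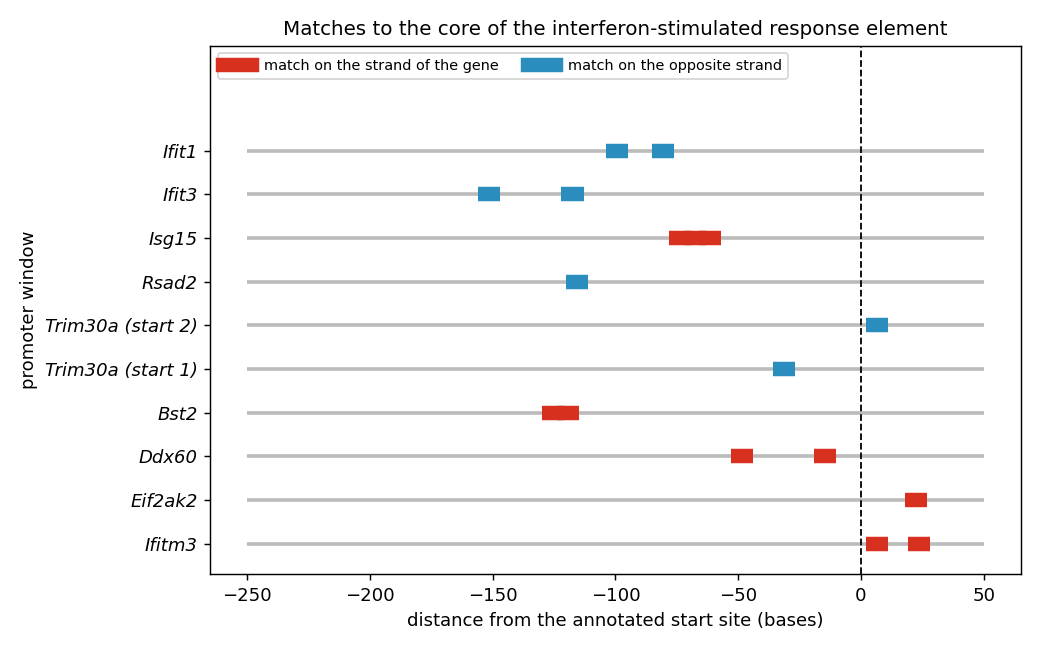
Position of each match to the core of the interferon-stimulated response element in the promoter windows of the 9 genes that held one. The x axis is the distance in bases from the annotated start (dashed line), each grey line is 1 window from 250 bases before to 50 after it, Trim30a has 2 windows with a match, and colour gives the strand of the match; the matches run from 156 bases before the start (Ifit3) to 19 after it (Ifitm3).

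Overexpression of Mst-1 alone was accompanied by higher RNA of most of the 35 genes, and in hearts that also lacked galectin-3 most of them were lower than in MstTg hearts. In MstTg against wt, 28 of the 35 were higher and 1 was lower, at an adjusted p under 0.05 in edgeR's quasi-likelihood test with Benjamini-Hochberg adjustment over all 15249 genes. Over all genes, 28.2% were higher and 26.8% lower in that comparison. The median log2 fold change was 0.52 over the 35 genes and 0.02 over all genes tested. In Mst1Gal3 against MstTg, 28 of the 35 were lower and none was higher, against 2.35% lower and 2.54% higher over all genes, and the median log2 fold change was -0.68 over the 35 genes and 0.02 over all genes. Of the 28 genes that were higher in MstTg than in wt, 24 were lower in Mst1Gal3 than in MstTg. These 2 comparisons share the MstTg libraries, so the overlap is not independent.

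Set against Gal3Ko, the Mst1Gal3 hearts had no common direction. In that comparison 7 of the 35 genes were higher and 7 were lower, against 26.9% higher and 25.6% lower over all genes, and the median log2 fold change was -0.02. In Gal3Ko against wt none of the 35 passed the test, against 0.177% higher and 0.177% lower over all genes. The log2 fold change was below 0 for 30 of them and above 0 for 5, with a median of -0.10 against 0.002 over all genes. DESeq2 also called none there, 2 genes (Parp10 and Ifi27) had an unadjusted p under 0.05 in edgeR, and the 95% intervals of the 35 log2 fold changes lay between -0.92 (Isg15) and 0.46 (Oasl1). Every MstTg library was above every wt library for 14 of the 35 genes, against 15.9% of all genes. Every Mst1Gal3 library was below every MstTg library for 24 of the 35, against 2% of all genes.

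The scaling between libraries bears on these counts. With library totals in place of TMM factors the median of all genes moved to 0.27 in MstTg against wt, where the median of the 35 genes was then 0.77, and to 0.24 in Mst1Gal3 against Gal3Ko, where that of the 35 was 0.22. Under that scaling 33 of the 35 were higher and 1 lower in MstTg against wt, 14 were higher and 3 lower in Mst1Gal3 against Gal3Ko, and 31 were lower in Mst1Gal3 against MstTg. All genes split into 7789 higher and 2166 lower in MstTg against wt with library totals, and into 4302 higher and 4083 lower with TMM factors. For Mst1Gal3 against Gal3Ko the split was 7374 higher and 1929 lower with library totals, and 4108 higher and 3905 lower with TMM factors. For Mst1Gal3 against MstTg it was 136 higher and 558 lower with library totals, and 387 higher and 359 lower with TMM factors, and for Gal3Ko against wt 16 higher and 45 lower against 27 and 27.

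Levels are given as CPM, the counts of a gene relative to its library's TMM-adjusted total. The libraries held 18580405 to 32663735 counts each, and at the lowest total a single count amounts to 0.0538 CPM. Stk4 was at 839.6 to 1168.2 CPM in Mst1Gal3 and 845.5 to 1066.0 CPM in MstTg libraries, against 21.03 to 25.9 CPM in Gal3Ko and 22.4 to 26.1 CPM in wt libraries. Lgals3 was at 2.54 to 5.43 CPM in Mst1Gal3 against 50.9 to 60.0 CPM in MstTg libraries. In Gal3Ko it was at 1.47 to 2.74 CPM, which overlapped the 0.878 to 2.41 CPM of wt, so Lgals3 gives no check of the knockout label without Mst-1. Atrial genes (the summed CPM of Myl7, Myl4 and Sln) passed 30 CPM in 6 libraries, Mst1Gal3 replicate 3, MstTg replicate 5, Gal3Ko replicates 4, 5 and 8 and wt replicate 5. Without those 6 libraries 28 of the 35 were higher and 1 lower in MstTg against wt, and 27 were lower in Mst1Gal3 against MstTg. In Mst1Gal3 against Gal3Ko 8 were then higher and 5 lower. Of all genes 4211 were then higher and 3914 lower in MstTg against wt, and 647 were higher and 380 lower in Mst1Gal3 against MstTg. The split of all genes in Mst1Gal3 against Gal3Ko was then 3686 higher and 3438 lower.

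**Figure D2:**
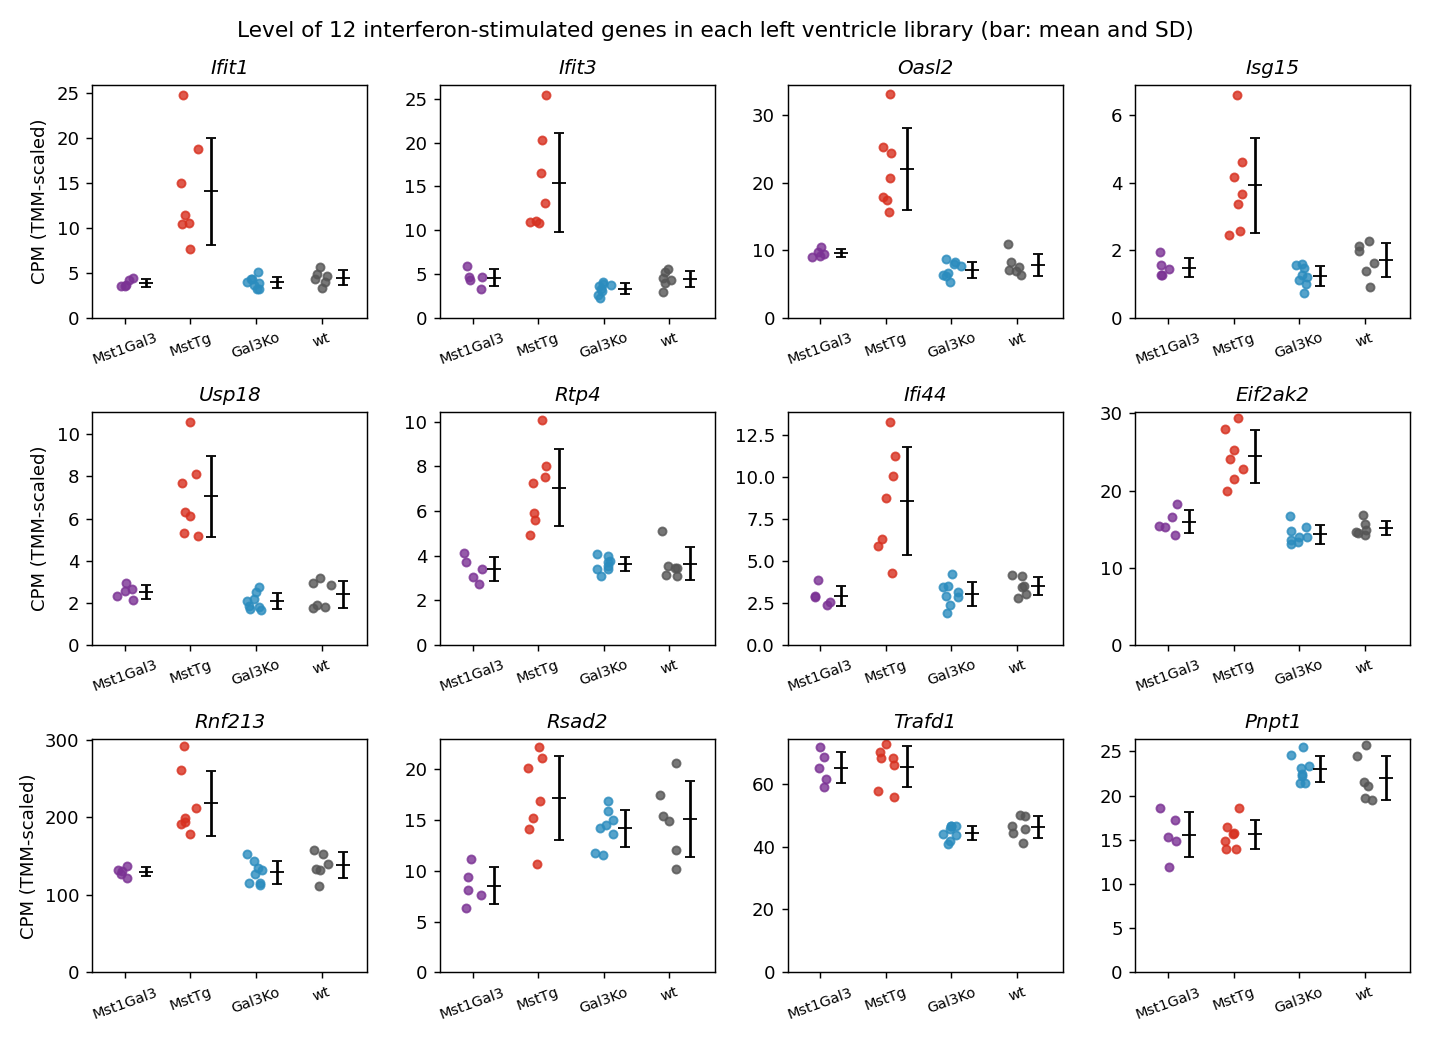
Level of 12 of the genes in each library, as TMM-scaled CPM on a linear axis from 0, with 1 point per library and the mean ± SD beside each group (Mst1Gal3, n = 5; MstTg, n = 7; Gal3Ko, n = 8; wt, n = 6). Ifit1, Ifit3, Usp18 and Eif2ak2 are high in MstTg alone, and Oasl2 is highest in MstTg, with Mst1Gal3 above Gal3Ko. Trafd1 is high and Pnpt1 low in both groups with Mst-1, and Rsad2 is lowest in Mst1Gal3.

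Of the 9 proteins that bind RNA, 8 were higher and 1 was lower in MstTg against wt, and 8 were lower in Mst1Gal3 against MstTg. The shares over all genes were 28.2% higher and 26.8% lower in the first comparison and 2.35% lower in the second. The median log2 fold change of the 9 genes in MstTg against wt, 1.30, was the highest of the 7 role groups into which the list was divided. Ifit1, Ifit2 and Ifit3 are neighbours on chromosome 19 and encode proteins of the IFIT family, of which IFIT1 binds RNA with an unusual 5′ end and keeps it from being translated. Ifit1 (chr19:34640871-34650009) had 3.69, 4.20, 3.52, 3.58 and 4.46 CPM in the Mst1Gal3 libraries, 7.69 to 24.8 CPM (median 11.4) in MstTg, 3.21 to 5.06 CPM (median 3.93) in Gal3Ko and 3.29 to 5.66 CPM (median 4.52) in wt libraries. Ifit2 (chr19:34550694-34576419) had 17.0, 19.3, 17.9, 13.5 and 16.3 CPM in the Mst1Gal3 libraries, 25.4 to 46.8 CPM (median 29.0) in MstTg, 9.93 to 16.8 CPM (median 11.9) in Gal3Ko and 10.4 to 15.5 CPM (median 14) in wt libraries. Ifit3 (chr19:34583531-34588731) had 4.72, 5.97, 4.35, 3.29 and 4.71 CPM in the Mst1Gal3 libraries, 10.8 to 25.4 CPM (median 13.1) in MstTg, 2.23 to 4.11 CPM (median 3.46) in Gal3Ko and 3.02 to 5.57 CPM (median 4.47) in wt libraries. For all 3 every MstTg library was above every library of the other groups. The log2 fold change ± SE in MstTg against wt was 1.64 ± 0.20 (adjusted p = 5.85e-08) for Ifit1, 1.30 ± 0.14 (adjusted p = 3.86e-09) for Ifit2 and 1.79 ± 0.20 (adjusted p = 8.55e-09) for Ifit3. Against MstTg, Mst1Gal3 was 3.59-fold lower for Ifit1, the deepest fall of the 35 genes. The log2 fold change there was -1.85 ± 0.21 (adjusted p = 3.10e-06) for Ifit1, -0.97 ± 0.14 (adjusted p = 5.96e-05) for Ifit2 and -1.74 ± 0.21 (adjusted p = 4.09e-06) for Ifit3. Ifit3 has a near copy, Ifit3b, and the authors' counting may have split reads between them.

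Oasl1 and Oasl2, neighbours on chromosome 5, encode proteins related to the oligoadenylate synthetases. Mouse Oasl1 is known to restrain the translation of Irf7. Oasl1 (chr5:114923240-114937915) had 0.634, 1.03, 0.644, 0.927 and 0.719 CPM in the Mst1Gal3 libraries, 1.82 to 5.01 CPM (median 2.39) in MstTg, 0.304 to 1.33 CPM (median 0.921) in Gal3Ko and 0.690 to 1.60 CPM (median 0.850) in wt libraries. Oasl2 (chr5:114896936-114912234) had 10.5, 9.10, 9.20, 9.74 and 9.50 CPM in the Mst1Gal3 libraries, 15.7 to 33.1 CPM (median 20.8) in MstTg, 5.27 to 8.70 CPM (median 7.17) in Gal3Ko and 6.33 to 10.9 CPM (median 7.39) in wt libraries. MstTg libraries were above all others for both genes, and for Oasl2 the Mst1Gal3 libraries were also all above the Gal3Ko libraries. Oasl1 was among the lowest of the 35 genes, with 6 to 120 counts per library. Both were higher in MstTg than in wt, Oasl1 by 1.48 ± 0.24 (adjusted p = 4.77e-06) and Oasl2 by 1.48 ± 0.15 (adjusted p = 9.53e-10). Both were lower in Mst1Gal3 than in MstTg, Oasl1 at -1.80 ± 0.26 (adjusted p = 3.86e-05) and Oasl2 at -1.20 ± 0.15 (adjusted p = 8.94e-06). Against Gal3Ko, Oasl2 was higher in Mst1Gal3 by 0.42 ± 0.15 (adjusted p = 0.0224), a call that was lost without Mst1Gal3 replicate 1 (adjusted p = 0.0551).

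The other RNA-binding members were Eif2ak2, the kinase PKR that stops translation when it meets double-stranded RNA, Ddx60, a helicase of antiviral RNA sensing, Adar, which edits adenosine to inosine in double-stranded RNA, and Pnpt1, an exoribonuclease of mitochondria. Eif2ak2 (chr17:78852564-78882573) had 15.3, 18.2, 16.6, 14.3 and 15.4 CPM in the Mst1Gal3 libraries, 19.97 to 29.3 CPM (median 24.1) in MstTg, 13.1 to 16.7 CPM (median 14) in Gal3Ko and 14.3 to 16.8 CPM (median 14.8) in wt libraries. Ddx60 (chr8:61928087-62038244) had 9.04, 6.55, 9.01, 9.48 and 9.39 CPM in the Mst1Gal3 libraries, 8.31 to 19.8 CPM (median 13.8) in MstTg, 5.20 to 9.94 CPM (median 7.56) in Gal3Ko and 5.47 to 8.64 CPM (median 7.89) in wt libraries. Adar (chr3:89715022-89753446) had 21.6, 21.5, 20.7, 21.4 and 20.2 CPM in the Mst1Gal3 libraries, 24.1 to 37.7 CPM (median 28.2) in MstTg, 18.3 to 24.6 CPM (median 22.6) in Gal3Ko and 20.8 to 27.3 CPM (median 23.7) in wt libraries. MstTg libraries were above all others for Eif2ak2, while for Ddx60 and Adar the MstTg range reached into that of wt, and for Ddx60 also into that of Mst1Gal3. The change in MstTg against wt was 0.69 ± 0.08 (adjusted p = 6.77e-09) for Eif2ak2, 0.93 ± 0.17 (adjusted p = 2.23e-05) for Ddx60 and 0.29 ± 0.09 (adjusted p = 0.00531) for Adar. That in Mst1Gal3 against MstTg was -0.61 ± 0.08 (adjusted p = 1.36e-05) for Eif2ak2, -0.73 ± 0.17 (adjusted p = 0.00934) for Ddx60 and -0.47 ± 0.09 (adjusted p = 0.00168) for Adar. Pnpt1 (chr11:29130744-29161828) had 14.8, 17.3, 15.3, 11.9 and 18.6 CPM in the Mst1Gal3 libraries, 13.9 to 18.7 CPM (median 15.7) in MstTg, 21.4 to 25.5 CPM (median 22.8) in Gal3Ko and 19.5 to 25.7 CPM (median 21.3) in wt libraries. Pnpt1 was the exception of the list, with every library of both Mst-1 groups below every library of its own control. It fell by 0.50 on the log2 scale in MstTg against wt (adjusted p = 6.65e-06) and by 0.56 in Mst1Gal3 against Gal3Ko (adjusted p = 2.15e-06), and Mst1Gal3 against MstTg gave 0.00 with a 95% interval of -0.18 to 0.19. An exon of Adar overlaps Chrnb2 on the other strand, and the strand setting of the counting is not given in the sources used here.

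In the ISG15 system 4 of 5 genes were higher in MstTg against wt, against 28.2% of all genes. In Mst1Gal3 against MstTg 4 of 5 were lower, against 2.35% of all genes. Isg15 encodes the ubiquitin-like protein itself and Usp18 the protease that removes it, which also restrains signalling at the interferon receptor. Isg15 (chr4:156199424-156200818) had 1.27, 1.94, 1.55, 1.43 and 1.26 CPM in the Mst1Gal3 libraries, 2.46 to 6.59 CPM (median 3.66) in MstTg, 0.746 to 1.59 CPM (median 1.23) in Gal3Ko and 0.914 to 2.27 CPM (median 1.80) in wt libraries. Usp18 (chr6:121245906-121270917) had 2.66, 2.92, 2.31, 2.57 and 2.12 CPM in the Mst1Gal3 libraries, 5.16 to 10.6 CPM (median 6.33) in MstTg, 1.67 to 2.74 CPM (median 1.99) in Gal3Ko and 1.78 to 3.20 CPM (median 2.38) in wt libraries. For both genes every MstTg library was above every library of the other groups, and Mst1Gal3 libraries lay within the range spanned by Gal3Ko and wt. The log2 fold change in MstTg against wt was 1.19 ± 0.21 (adjusted p = 1.55e-05) for Isg15 and 1.54 ± 0.17 (adjusted p = 1.94e-09) for Usp18. In Mst1Gal3 against MstTg both were lower, at -1.38 ± 0.22 (adjusted p = 0.000164) for Isg15 and -1.48 ± 0.17 (adjusted p = 1.56e-06) for Usp18.

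Herc6 is the main ligase that attaches ISG15 in the mouse, Uba7 the enzyme that activates it, and Trim25 a ubiquitin ligase that acts on the RNA sensor RIG-I. Herc6 (chr6:57581000-57664632) had 4.56, 4.28, 4.54, 3.54 and 4.42 CPM in the Mst1Gal3 libraries, 5.54 to 12.9 CPM (median 8.43) in MstTg, 3.21 to 8.17 CPM (median 4.11) in Gal3Ko and 3.01 to 6.86 CPM (median 6.04) in wt libraries. Trim25 (chr11:88999376-89020293) had 33.0, 29.2, 26.9, 30.1 and 29.6 CPM in the Mst1Gal3 libraries, 33.9 to 48.0 CPM (median 37.2) in MstTg, 32.9 to 47.1 CPM (median 38.9) in Gal3Ko and 33.7 to 43.7 CPM (median 39.2) in wt libraries. MstTg overlapped wt for both, and Mst1Gal3 was below all MstTg libraries for both. Herc6 was higher in MstTg than in wt by 0.78 ± 0.21 (adjusted p = 0.0022) and changed by -1.10 ± 0.22 (adjusted p = 0.00298) in Mst1Gal3 against MstTg. Trim25 gave 0.02 ± 0.08 (adjusted p = 0.888) in MstTg against wt, which did not pass the test, and was lower in Mst1Gal3, at -0.39 ± 0.09 (adjusted p = 0.00631) against MstTg and -0.42 ± 0.09 (adjusted p = 0.000123) against Gal3Ko. With library totals in place of TMM factors Trim25 was at -0.19 in Mst1Gal3 against Gal3Ko (adjusted p = 0.102) and higher by 0.26 in MstTg against wt (adjusted p = 0.0173). Uba7 averaged 23.2 ± 2.18 CPM in Mst1Gal3, 28.8 ± 2.38 CPM in MstTg, 19.1 ± 2.52 CPM in Gal3Ko and 20.7 ± 3.88 CPM in wt libraries (mean ± SD). It was higher in both Mst-1 comparisons, by 0.47 ± 0.10 (adjusted p = 9.68e-05) in MstTg against wt and by 0.28 ± 0.10 (adjusted p = 0.0176) in Mst1Gal3 against Gal3Ko. The second call was lost without Mst1Gal3 replicate 1 (adjusted p = 0.0670).

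The 5 genes of ADP-ribosylation had small changes. Their log2 fold changes were 0.07 to 0.45 in MstTg against wt, with 3 called higher, against 28.2% of all genes. They were -0.68 to -0.23 in Mst1Gal3 against MstTg, with 3 called lower, against 2.35% of all genes. Parp14 and Parp12 encode enzymes that attach single ADP-ribose units, as does Parp10, and Parp9 works as a complex with the ubiquitin ligase Dtx3l. Parp14 (chr16:35832874-35871544) had 35.2, 38.8, 37.9, 32.2 and 35.9 CPM in the Mst1Gal3 libraries, 45.1 to 77.0 CPM (median 55.5) in MstTg, 37.6 to 46.9 CPM (median 42.3) in Gal3Ko and 39.8 to 53.6 CPM (median 46.5) in wt libraries. Parp9 (chr16:35938470-35972605) had 21.1, 24.0, 22, 19.7 and 23.5 CPM in the Mst1Gal3 libraries, 24.3 to 31.3 CPM (median 27.4) in MstTg, 17.7 to 24.0 CPM (median 20.4) in Gal3Ko and 15.6 to 23.1 CPM (median 19.9) in wt libraries. Parp12 (chr6:39086410-39118349) had 16.9, 15.5, 13.9, 15.9 and 17.2 CPM in the Mst1Gal3 libraries, 17.9 to 23.7 CPM (median 19.7) in MstTg, 16.5 to 21 CPM (median 18.4) in Gal3Ko and 17.4 to 21.2 CPM (median 19.2) in wt libraries. For all 3 genes every Mst1Gal3 library was below every MstTg library, and for Parp9 every MstTg library was above every wt library as well. The Mst1Gal3 libraries differed from MstTg for Parp14 by -0.68 ± 0.09 (adjusted p = 1.30e-05), for Parp12 by -0.34 ± 0.07 (adjusted p = 0.00291) and for Parp9 by -0.30 ± 0.08 (adjusted p = 0.0337). The Parp9 call was lost without Mst1Gal3 replicate 1, 3 or 4 or MstTg replicate 1, 2, 6 or 7 (adjusted p up to 0.114). Parp14 changed in MstTg against wt by 0.30 ± 0.09 (adjusted p = 0.00324), Parp9 by 0.45 ± 0.08 (adjusted p = 1.83e-05) and Parp12, not called, by 0.07 ± 0.07 (adjusted p = 0.37). Dtx3l (chr16:35926511-35939151) had 28.7, 32.7, 27.4, 26.5 and 29.7 CPM in the Mst1Gal3 libraries, 30.04 to 41.1 CPM (median 33.0) in MstTg, 25.9 to 37.0 CPM (median 28.3) in Gal3Ko and 25.6 to 33.6 CPM (median 32) in wt libraries. All 4 groups overlapped for Dtx3l and it passed no test, with 0.13 ± 0.08 (adjusted p = 0.157) in MstTg against wt and -0.23 ± 0.08 (adjusted p = 0.116) in Mst1Gal3 against MstTg. With library totals it was called in all 3 comparisons that involve Mst-1, at 0.38 in MstTg against wt, 0.23 in Mst1Gal3 against Gal3Ko and -0.30 in Mst1Gal3 against MstTg. Exons of Parp9 and Dtx3l overlap on opposite strands, and whether their reads were counted by strand is not stated. Parp10, whose exons overlap Plec, averaged 10.8 ± 0.631 CPM in Mst1Gal3, 13.0 ± 2.31 CPM in MstTg, 8.29 ± 1.18 CPM in Gal3Ko and 10.5 ± 1.93 CPM in wt libraries. It was higher by 0.31 ± 0.11 (adjusted p = 0.0172) in MstTg against wt and by 0.38 ± 0.11 (adjusted p = 0.00561) in Mst1Gal3 against Gal3Ko. The first of these calls was lost without MstTg replicate 2 (adjusted p = 0.0655) and without wt replicate 1 or 2.

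All 4 genes of the next group were lower in Mst1Gal3 than in MstTg, against 2.35% of all genes. In Mst1Gal3 against Gal3Ko 2 of them were lower as well, against 25.6% of all genes. Rsad2 (viperin) makes a modified nucleotide that ends viral RNA chains, and Cmpk2, which lies 12752 bases from it on chromosome 12, encodes a mitochondrial nucleotide kinase. Rsad2 (chr12:26442746-26456452) had 9.43, 11.2, 7.65, 8.14 and 6.29 CPM in the Mst1Gal3 libraries, 10.7 to 22.2 CPM (median 16.8) in MstTg, 11.6 to 16.9 CPM (median 14.4) in Gal3Ko and 10.2 to 20.6 CPM (median 15.2) in wt libraries. Cmpk2 (chr12:26469204-26479837) had 5.75, 5.52, 4.66, 7 and 4.64 CPM in the Mst1Gal3 libraries, 7.94 to 14.7 CPM (median 10.7) in MstTg, 6.55 to 9.31 CPM (median 8.36) in Gal3Ko and 6.68 to 9.85 CPM (median 7.36) in wt libraries. Every Mst1Gal3 library was below every Gal3Ko library for Rsad2, and below every MstTg library for Cmpk2. For Rsad2 the MstTg and wt libraries overlapped over most of their range, and the lowest MstTg library lay below the highest Mst1Gal3 library. Rsad2 changed by -1.005 ± 0.18 (adjusted p = 0.000663) in Mst1Gal3 against MstTg and by -0.74 ± 0.17 (adjusted p = 0.000762) in Mst1Gal3 against Gal3Ko, the deepest fall of the 35 genes against Gal3Ko, while MstTg against wt gave 0.18 ± 0.16 (adjusted p = 0.353). Cmpk2 was higher in MstTg against wt by 0.41 ± 0.13 (adjusted p = 0.00702). It was lower in Mst1Gal3, at -0.91 ± 0.14 (adjusted p = 7.04e-05) against MstTg and -0.57 ± 0.14 (adjusted p = 0.000796) against Gal3Ko.

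Helz2, a helicase that also acts as a nuclear receptor coactivator, and Samd9l, an antiviral and growth-restraining protein, had smaller changes in Mst1Gal3 against MstTg than Rsad2 and Cmpk2. Helz2 (chr2:181227615-181242027) had 33.0, 35.6, 31.9, 32.2 and 35.1 CPM in the Mst1Gal3 libraries, 36.7 to 59.4 CPM (median 41.9) in MstTg, 31.4 to 49.3 CPM (median 35) in Gal3Ko and 31.0 to 44.5 CPM (median 40.5) in wt libraries. Samd9l (chr6:3372257-3399572) had 15.6, 18.1, 17.5, 15.1 and 20.3 CPM in the Mst1Gal3 libraries, 16.7 to 36.8 CPM (median 26.4) in MstTg, 19.0 to 22.3 CPM (median 19.8) in Gal3Ko and 20.6 to 25.4 CPM (median 22.1) in wt libraries. MstTg overlapped wt for both genes, and Mst1Gal3 was below all MstTg libraries for Helz2 only. Samd9l changed by -0.64 ± 0.12 (adjusted p = 0.00113) in Mst1Gal3 against MstTg and by 0.27 ± 0.11 (adjusted p = 0.0433) in MstTg against wt. The second of these calls was lost without any 1 of MstTg replicates 1, 2, 3, 6 and 7, Gal3Ko replicate 6 and wt replicates 2, 3, 4, 5 and 6 (adjusted p up to 0.139), and with only the MstTg and wt libraries in the fit (0.164). Helz2 changed by -0.44 ± 0.12 (adjusted p = 0.0282) in Mst1Gal3 against MstTg, which was lost without Mst1Gal3 replicate 1, 3 or 4 or MstTg replicate 2 or 6 (adjusted p up to 0.0772), and by 0.20 ± 0.11 (adjusted p = 0.139) in MstTg against wt, which did not pass.

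All 4 membrane proteins were higher in MstTg against wt (28.2% of all genes) and lower in Mst1Gal3 against MstTg (2.35% of all genes). Rtp4 is a chaperone of membrane receptors, Ifitm3 keeps viruses from fusing with endosomes, Bst2 (tetherin) holds budding virus at the cell surface, and Tor3a is an ATPase of the endoplasmic reticulum. Rtp4 (chr16:23520291-23614222) had 4.12, 3.42, 3.07, 2.74 and 3.74 CPM in the Mst1Gal3 libraries, 4.92 to 10.1 CPM (median 7.27) in MstTg, 3.08 to 4.07 CPM (median 3.63) in Gal3Ko and 3.11 to 5.11 CPM (median 3.45) in wt libraries. Ifitm3 (chr7:141009586-141010770) had 26.4, 25.9, 24.2, 24.8 and 25.1 CPM in the Mst1Gal3 libraries, 29.4 to 45.1 CPM (median 36.7) in MstTg, 19.3 to 27.6 CPM (median 22) in Gal3Ko and 19.5 to 28.1 CPM (median 23.7) in wt libraries. Bst2 (chr8:71534255-71537456) had 5.35, 4.98, 5.00, 8.43 and 5.25 CPM in the Mst1Gal3 libraries, 6.43 to 13.3 CPM (median 10.1) in MstTg, 5.48 to 8.20 CPM (median 6.08) in Gal3Ko and 5.21 to 8.36 CPM (median 6.69) in wt libraries. MstTg was above all wt libraries for Ifitm3, and overlapped wt for Rtp4 by a single wt library at 5.11 CPM and for Bst2 more widely. Tor3a (chr1:156653617-156674356) had 15.8, 16.8, 15.6, 14.4 and 13.8 CPM in the Mst1Gal3 libraries, 17.2 to 22 CPM (median 18.8) in MstTg, 9.25 to 12.4 CPM (median 11.2) in Gal3Ko and 9.66 to 13.2 CPM (median 10.8) in wt libraries. Tor3a kept an intermediate level in Mst1Gal3, above every Gal3Ko library and below every MstTg library. The changes in MstTg against wt were 0.95 ± 0.14 (adjusted p = 6.18e-07) for Rtp4, 0.63 ± 0.09 (adjusted p = 3.10e-07) for Ifitm3, 0.61 ± 0.15 (adjusted p = 0.000721) for Bst2 and 0.84 ± 0.08 (adjusted p = 7.98e-11) for Tor3a. Those in Mst1Gal3 against MstTg were -1.03 ± 0.15 (adjusted p = 2.48e-05) for Rtp4, -0.53 ± 0.09 (adjusted p = 0.000376) for Ifitm3, -0.81 ± 0.15 (adjusted p = 0.00121) for Bst2 and -0.37 ± 0.08 (adjusted p = 0.00436) for Tor3a. Exons of Rtp4 overlap the gene model Gm45338, and Ifitm3 has close copies such as Ifitm2, so their counts carry that uncertainty.

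Sp100 is a scaffold of nuclear bodies and Trim30a a protein of the TRIM family. Trafd1 is a regulator of innate signalling with a TRAF-type zinc finger, and Rnf213 a giant ubiquitin ligase. All 4 were higher in MstTg against wt, against 28.2% of all genes. Trim30a (chr7:104409025-104465193) had 7.21, 8.65, 7.95, 7.25 and 9.03 CPM in the Mst1Gal3 libraries, 11.6 to 21.9 CPM (median 13.7) in MstTg, 7.67 to 11 CPM (median 9.17) in Gal3Ko and 8.28 to 11.8 CPM (median 11.4) in wt libraries. Rnf213 (chr11:119393100-119487418) had 137.6, 130.4, 121.5, 132.2 and 126.8 CPM in the Mst1Gal3 libraries, 178.8 to 291.5 CPM (median 198.8) in MstTg, 112.7 to 152.0 CPM (median 129.2) in Gal3Ko and 111.8 to 158.1 CPM (median 137.0) in wt libraries. Sp100 (chr1:85649988-85709998) had 21.6, 19.6, 21.9, 19.8 and 23.1 CPM in the Mst1Gal3 libraries, 23.9 to 41.6 CPM (median 34.5) in MstTg, 21.4 to 30.9 CPM (median 26.6) in Gal3Ko and 22.8 to 32.4 CPM (median 27.0) in wt libraries. For these 3 genes every Mst1Gal3 library was below every MstTg library, and for Rnf213 every MstTg library was above every wt library. Trafd1 (chr5:121371725-121385632) had 68.4, 65.0, 59.1, 71.6 and 61.7 CPM in the Mst1Gal3 libraries, 55.7 to 72.6 CPM (median 68.2) in MstTg, 41.0 to 46.6 CPM (median 44.7) in Gal3Ko and 41.2 to 50.1 CPM (median 46.0) in wt libraries. Trafd1 differed from them in that both Mst-1 groups were above both control groups and did not separate from each other. In MstTg against wt the changes were 0.52 ± 0.12 (adjusted p = 0.000393) for Trim30a, 0.66 ± 0.10 (adjusted p = 1.03e-06) for Rnf213, 0.31 ± 0.11 (adjusted p = 0.0146) for Sp100 and 0.50 ± 0.06 (adjusted p = 3.12e-08) for Trafd1. In Mst1Gal3 against MstTg they were -0.94 ± 0.13 (adjusted p = 1.40e-05) for Trim30a, -0.75 ± 0.10 (adjusted p = 2.47e-05) for Rnf213, -0.67 ± 0.12 (adjusted p = 0.00041) for Sp100 and -0.01 with a 95% interval of -0.14 to 0.13 for Trafd1. Trim30a and Sp100 have close copies in the mouse genome, and exons of Trafd1 and Rnf213 overlap genes on the other strand (Gm42918 and A930037H05Rik).

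The last 4 genes are Ifi44, Xaf1, which binds the apoptosis inhibitor XIAP, Ifi35 and Ifi27. Ifi44 (chr3:151730922-151749960) had 2.54, 3.87, 2.84, 2.91 and 2.37 CPM in the Mst1Gal3 libraries, 4.28 to 13.3 CPM (median 8.73) in MstTg, 1.93 to 4.24 CPM (median 3.02) in Gal3Ko and 2.81 to 4.18 CPM (median 3.49) in wt libraries. Xaf1 (chr11:72301629-72313733) had 6.86, 5.60, 5.98, 5.35 and 5.79 CPM in the Mst1Gal3 libraries, 7.72 to 15.4 CPM (median 10.5) in MstTg, 4.07 to 8.70 CPM (median 5.56) in Gal3Ko and 5.08 to 7.75 CPM (median 6.49) in wt libraries. Ifi27 (chr12:103434211-103440239) had 12.8, 11.3, 9.96, 15.4 and 13.9 CPM in the Mst1Gal3 libraries, 11.7 to 13.7 CPM (median 12.9) in MstTg, 8.87 to 12.5 CPM (median 10.4) in Gal3Ko and 10.3 to 21 CPM (median 12.1) in wt libraries. Every MstTg library was above every Mst1Gal3 library for Ifi44 and Xaf1, and above every wt library for Ifi44 only, while all groups overlapped for Ifi27. The change in MstTg against wt was 1.27 ± 0.20 (adjusted p = 4.92e-06) for Ifi44, 0.75 ± 0.16 (adjusted p = 0.000157) for Xaf1 and -0.03 ± 0.12 (adjusted p = 0.851) for Ifi27, the last not called. That in Mst1Gal3 against MstTg was -1.55 ± 0.22 (adjusted p = 3.86e-05) for Ifi44, -0.88 ± 0.16 (adjusted p = 0.00106) for Xaf1 and -0.02 ± 0.13 (adjusted p = 0.957) for Ifi27, again not called for the last. Ifi35 averaged 10.3 ± 1.07 CPM in Mst1Gal3, 12.6 ± 1.71 CPM in MstTg, 8.70 ± 0.905 CPM in Gal3Ko and 9.36 ± 1.34 CPM in wt libraries. It was higher by 0.43 ± 0.09 (adjusted p = 0.000247) in MstTg against wt and by 0.25 ± 0.10 (adjusted p = 0.034) in Mst1Gal3 against Gal3Ko. The second call was lost without Mst1Gal3 replicate 1 or 4 or Gal3Ko replicate 1, 3 or 6 (adjusted p up to 0.138).

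**Figure D3:**
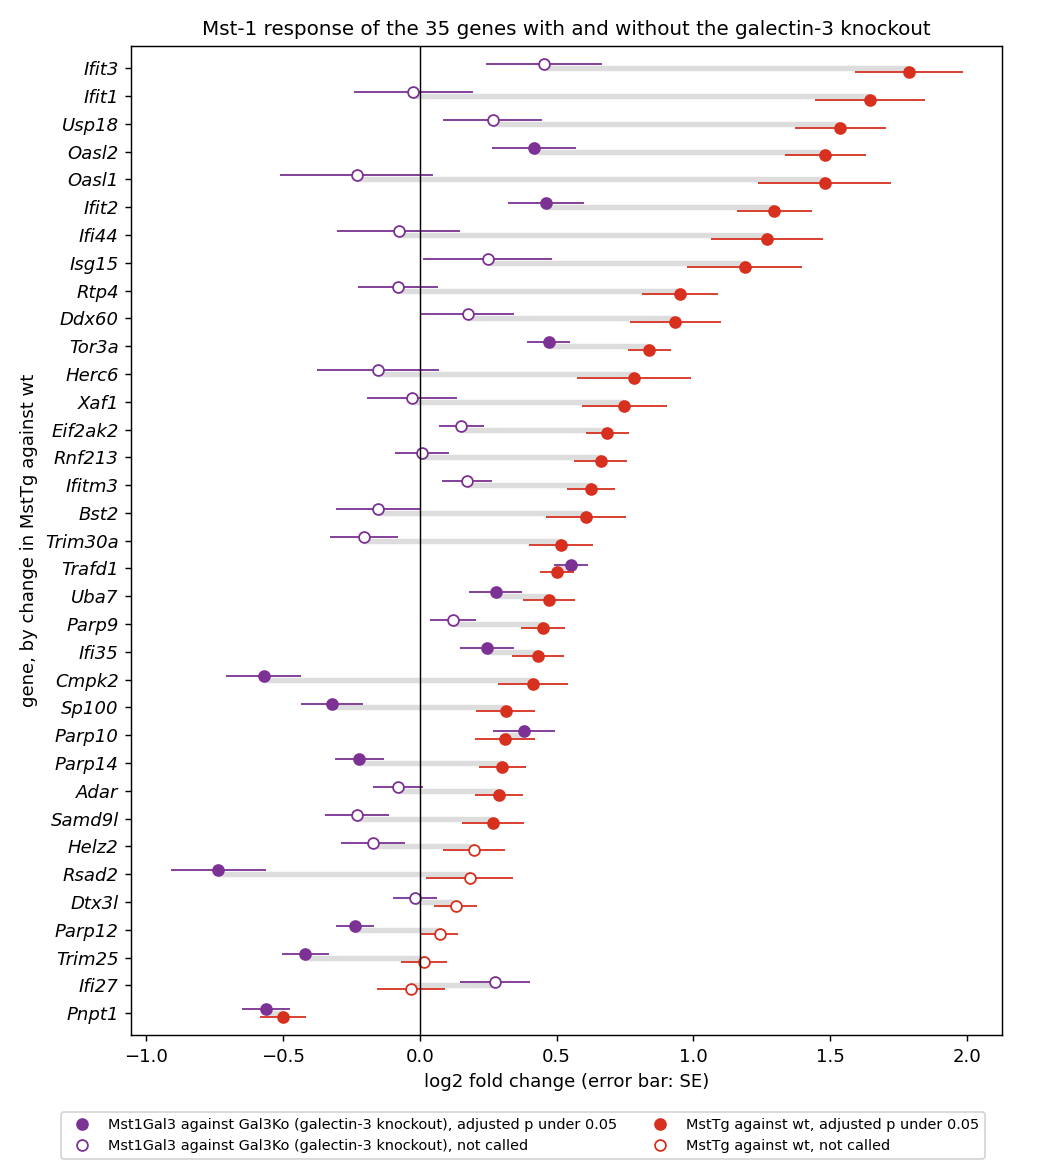
Log2 fold change ± SE of each of the 35 genes in Mst1Gal3 against Gal3Ko (purple) and in MstTg against wt (red), in order of the change in MstTg against wt, with filled points for genes at an adjusted p under 0.05. The purple point lies left of the red one for 32 genes, and the pairs of Trafd1, Parp10 and Pnpt1 lie close together.

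Whether the response to Mst-1 differed with the galectin-3 knockout was tested directly, as the change in Mst1Gal3 against Gal3Ko minus the change in MstTg against wt. This difference was below 0 for 32 of the 35 genes and passed the test for 13, all below 0, against 0.367% of all genes called below 0 and 0.289% called above. Its median was -0.63 over the 35 genes and 0.01 over all genes. Of the 13 genes the largest differences were those of Oasl1 at -1.71 ± 0.37 (adjusted p = 0.0218), Ifit1 at -1.67 ± 0.30 (adjusted p = 0.00844), Ifi44 at -1.35 ± 0.30 (adjusted p = 0.0319), Ifit3 at -1.33 ± 0.29 (adjusted p = 0.0253), Usp18 at -1.27 ± 0.25 (adjusted p = 0.0115), Oasl2 at -1.06 ± 0.21 (adjusted p = 0.0157) and Rtp4 at -1.03 ± 0.20 (adjusted p = 0.0125). They also included Cmpk2 at -0.98 ± 0.19 (adjusted p = 0.0104), Ifit2 at -0.83 ± 0.20 (adjusted p = 0.0427), Trim30a at -0.72 ± 0.17 (adjusted p = 0.0427), Rnf213 at -0.65 ± 0.14 (adjusted p = 0.0218), Eif2ak2 at -0.53 ± 0.11 (adjusted p = 0.0195) and Parp14 at -0.52 ± 0.12 (adjusted p = 0.0388). By role they were 6 of the 9 RNA-binding proteins, 2 of the 4 of the group with Trim30a and Rnf213, and 1 each of the other groups, of 4 or 5 genes. The difference shares the Mst1Gal3 and MstTg libraries with the comparison of those groups, so lower values in both are not independent. Usp18, Rtp4 and Cmpk2 kept their call in each of the 37 alternatives run for this test. The call was lost in 22 of the 37 for Trim30a, 17 for Ifit2, 14 each for Ifi44 and Parp14, 8 for Ifit3, 5 for Oasl1, 2 each for Oasl2 and Rnf213, and 1 each for Ifit1 and Eif2ak2. The count was 5 with the replicate block, 8 with limma-voom and 9 without the 6 libraries with atrial genes. The count was 8 without Mst1Gal3 replicate 1 or 4, Gal3Ko replicate 7 or wt replicate 2, 7 without Mst1Gal3 replicate 5 and 18 without MstTg replicate 5.

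Of the 9 genes with a GAAANNGAAA match in their promoter window, 8 were higher in MstTg against wt, all 9 were lower in Mst1Gal3 against MstTg, and 4 (Ifit1, Ifit3, Trim30a and Eif2ak2) were among the 13. Of the 19 genes with a window and no match, 14 were higher in MstTg against wt, 14 were lower in Mst1Gal3 against MstTg and 6 were among the 13. The shares over all genes were 28.2% higher, 2.35% lower and 0.367% below 0 in these tests, in that order. The 7 genes without a window are in neither count, and in Mst1Gal3 against MstTg they ranged from -1.48 (Usp18) to -0.02 (Ifi27). The median log2 fold change in Mst1Gal3 against MstTg was -0.94 over the 9 genes with a match and -0.64 over the 19 without. Of the stretches printed above, those of Ifit1 (-1.85), Ifit3 (-1.74) and Isg15 (-1.38) belong to larger falls. Those of Bst2 (-0.81), Ddx60 (-0.73) and Eif2ak2 (-0.61) belong to smaller ones. Oasl1 (-1.80) and Ifi44 (-1.55), with a window and no match, were also among the larger falls.

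Of the 7 genes without a call in Mst1Gal3 against MstTg, 5 were called in both Mst-1 comparisons. Trafd1, Parp10, Ifi35 and Uba7 were higher in both, and Pnpt1 was lower in both. Between Mst1Gal3 and MstTg the change was -0.26 ± 0.12 (adjusted p = 0.214) for Parp10, -0.29 ± 0.10 (adjusted p = 0.0839) for Ifi35 and -0.31 ± 0.10 (adjusted p = 0.0671) for Uba7. Uba7 was called lower there with DESeq2 (adjusted p = 0.0348) and in 5 further settings, which were library totals, limma-voom with quality weights, the 2 groups alone, and the fits without MstTg replicate 5 or wt replicate 2. Ifi35 was called lower with library totals and with limma-voom with quality weights, and Dtx3l with library totals. For the difference of the responses the 95% interval was -0.13 to 0.23 for Trafd1, -0.31 to 0.19 for Pnpt1, -0.26 to 0.40 for Parp10, -0.48 to 0.09 for Uba7 and -0.47 to 0.10 for Ifi35, which is narrower for Trafd1 than for any of the others named. Ifit2, Oasl2 and Tor3a were higher in both Mst-1 comparisons and also lower in Mst1Gal3 than in MstTg. In Mst1Gal3 against Gal3Ko they changed by 0.46 ± 0.14 (adjusted p = 0.00663), 0.42 ± 0.15 (adjusted p = 0.0224) and 0.47 ± 0.08 (adjusted p = 7.13e-06) in that order. Parp14, Cmpk2 and Sp100 were higher in MstTg than in wt but lower in Mst1Gal3 than in Gal3Ko, where Parp14 changed by -0.22 ± 0.09 (adjusted p = 0.037) and Sp100 by -0.32 ± 0.11 (adjusted p = 0.0181). The Parp14 call was lost without any 1 of Mst1Gal3 replicates 1, 4 and 5 and Gal3Ko replicates 1, 2, 7 and 8, and with library totals in place of TMM factors Parp14 was at 0.01 (adjusted p = 0.906) and Sp100 at -0.09 (adjusted p = 0.549). Parp12 was lower there, at -0.24 ± 0.07 (adjusted p = 0.00503). It was close to 0 with library totals (adjusted p = 0.994) and at -0.16 without the 6 libraries with atrial genes (adjusted p = 0.0773).

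**Figure D4:**
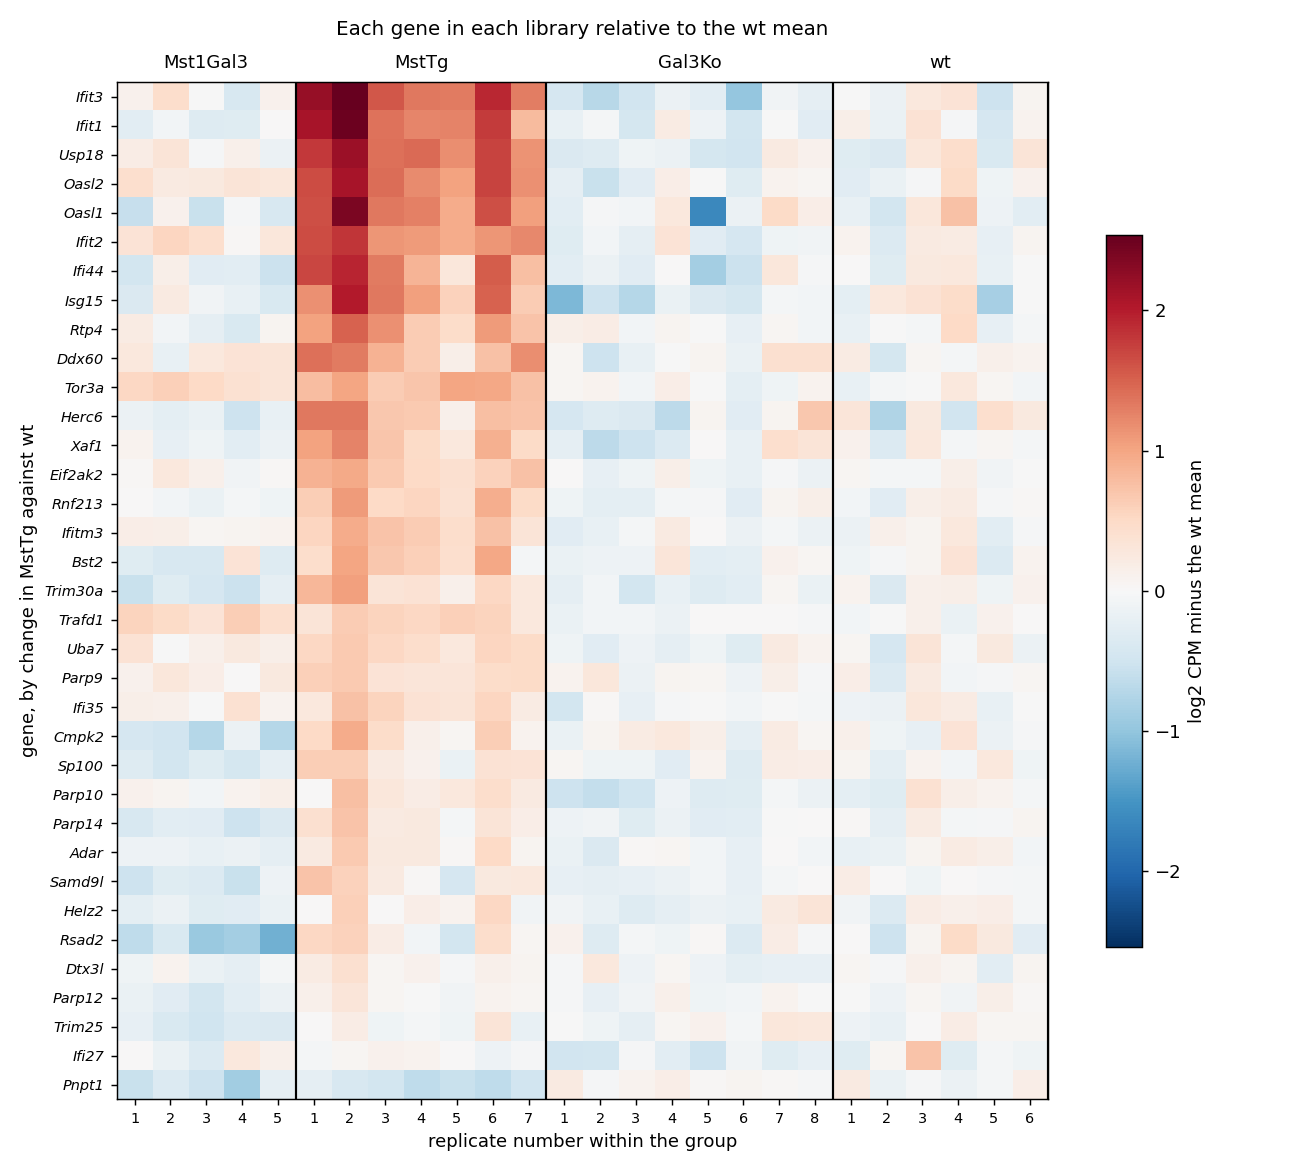
Each of the 35 genes (rows, in order of change in MstTg against wt) in each of the 26 libraries (columns, with replicate numbers), as log2 CPM minus the mean log2 CPM of the wt libraries. The MstTg columns are red for most rows, most deeply in replicate 2 and least in replicate 5, and the Mst1Gal3 columns are close to the control columns.

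The genes varied together within the MstTg group. MstTg replicate 2 had the highest level of its group for 29 of the 35 genes and MstTg replicate 5 the lowest for 22. The mean log2 CPM of the 35 genes stood 0.32 to 1.07 above the wt mean in MstTg libraries, and between -0.16 and -0.02 in Mst1Gal3, -0.26 and 0.08 in Gal3Ko, and -0.21 and 0.15 in wt libraries. All 7 MstTg libraries were thus above all others in this mean. The mean Pearson correlation between pairs of the 35 genes, taken over deviations from the group mean, was 0.0952 over the 5 Mst1Gal3 libraries, 0.6246 over the 7 MstTg, 0.281 over the 8 Gal3Ko and 0.289 over the 6 wt libraries. Over all 26 libraries it was 0.403, against 0.00383 for all genes. These values are descriptions across genes, which share libraries and depth and are not independent replicates. Rnf213 had the highest mean correlation with the other members over all libraries (0.579) and Ifi27 the lowest (0.0141).

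Depth moved with this spread in the MstTg group. The MstTg libraries with the smallest totals, replicate 1 (19922124 counts) and replicate 2 (20869172 counts), had the highest means of the 35 genes, 0.79 and 1.07 above the wt mean. The largest total (29774835 counts) was that of replicate 5, whose mean was the lowest at 0.32. With the log2 library total as a covariate, a fit added after the data were seen, 28 genes were lower in Mst1Gal3 against MstTg, 28 were higher in MstTg against wt and 15 passed the test of the difference of responses. Without MstTg replicates 2 and 5 these counts were 26, 27 and 16. The covariate fit used 1 slope for all groups. The Pearson correlation of the log2 total with the mean of the 35 genes was -0.89 over the MstTg libraries. It was -0.27 over Mst1Gal3, 0.44 over Gal3Ko and -0.20 over wt libraries. A shared slope cannot follow a trend of the MstTg group alone, so the part of depth in the spread within MstTg was not tested. The share of counts on mitochondrial genes was 15.7% to 23.0% in Mst1Gal3 and 14.4% to 23.3% in MstTg libraries, against 26.8% to 38.3% in Gal3Ko and 29.2% to 35.5% in wt libraries, so every library with Mst-1 was below every library without it. With the mitochondrial genes left out, 28 of the 35 were again lower in Mst1Gal3 against MstTg, and 28 were higher and 1 lower in MstTg against wt.

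**Figure D5:**
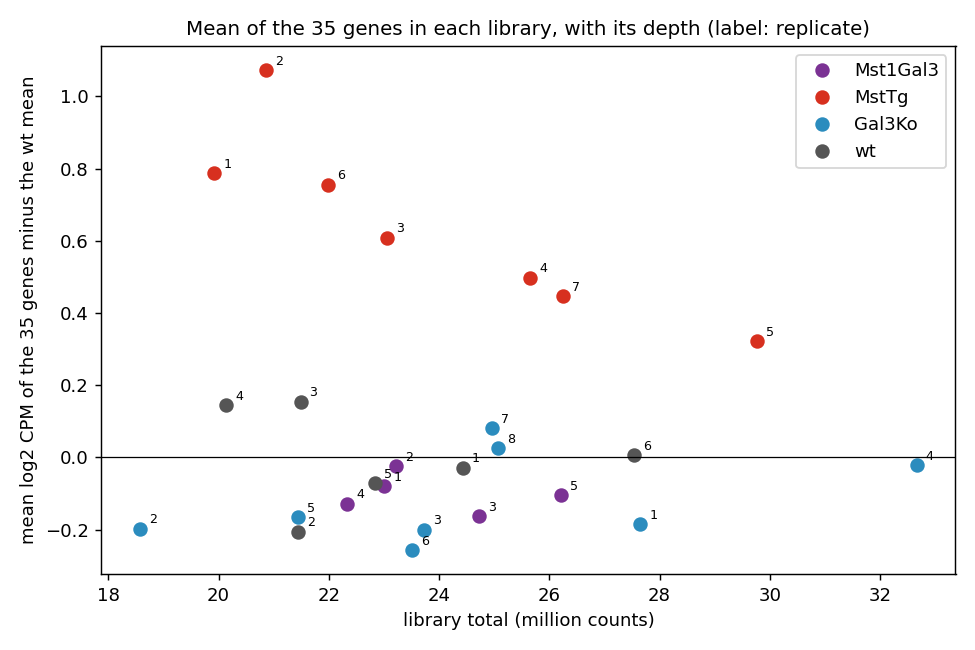
Mean log2 CPM of the 35 genes in each library minus the wt mean (y axis) against the library total (x axis), with the replicate number beside each point. The 7 MstTg points lie at 0.32 to 1.07 and fall with depth, and the points of the other groups lie between -0.26 and 0.15.

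Levels of different genes can be set side by side per kilobase of exon. In wt libraries Ifitm3 had the highest mean at 34.9 CPM per kb, followed by Trafd1 at 10.3, Ifi27 at 8.97 and Rnf213 at 8.17 CPM per kb. The lowest were Oasl1 at 0.380 and Herc6 at 0.571 CPM per kb. In MstTg libraries Ifitm3 was again highest at 53.9 CPM per kb and Oasl1 had 1.06 CPM per kb.

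The genes upstream of this list gave a mixed picture. Over all genes, 28.2% were higher and 26.8% lower in MstTg against wt, and 26.9% and 25.6% in Mst1Gal3 against Gal3Ko. In Mst1Gal3 against MstTg 2.54% of all genes were higher and 2.35% lower. Of the 10 interferon genes of the ligand list 0 were measured, so their RNA was not analysed here. Of 9 receptor and JAK kinase genes, 3 were higher and 4 lower in MstTg against wt, 2 higher and 3 lower in Mst1Gal3 against Gal3Ko, and 1 lower in Mst1Gal3 against MstTg. Il10rb, a shared receptor chain of interferon lambda and IL-10, changed by -0.65 ± 0.05 (adjusted p = 1.40e-12) in MstTg against wt. Of the chains of the interferon gamma receptor, Ifngr1 changed by 0.67 ± 0.06 (adjusted p = 7.85e-11) and Ifngr2 by -0.40 ± 0.05 (adjusted p = 8.46e-08) in the same comparison. Ifngr1 was the 1 gene lower in Mst1Gal3 against MstTg, at -0.32 ± 0.06 (adjusted p = 0.00211). Of 11 STAT and IRF genes, 6 were higher and 1 lower in MstTg against wt, 2 higher and 2 lower in Mst1Gal3 against Gal3Ko, and 5 lower in Mst1Gal3 against MstTg. Irf7, which amplifies interferon responses, had 6.10, 6.26, 4.62, 5.73 and 5.11 CPM in the Mst1Gal3 libraries, 12.8 to 35.3 CPM (median 21.8) in MstTg, 4.35 to 8.31 CPM (median 5.39) in Gal3Ko and 5.30 to 9.39 CPM (median 5.73) in wt libraries. All MstTg libraries were above all others for Irf7. It changed by 1.81 ± 0.19 (adjusted p = 8.34e-09) in MstTg against wt and by -1.99 ± 0.21 (adjusted p = 9.00e-07) in Mst1Gal3 against MstTg. Irf9, the DNA-binding part of ISGF3, changed by 0.70 ± 0.10 (adjusted p = 2.42e-07) in MstTg against wt and by -0.80 ± 0.10 (adjusted p = 5.39e-06) in Mst1Gal3 against MstTg. Irf5 was higher in both Mst-1 comparisons, by 1.03 ± 0.12 (adjusted p = 1.05e-08) in MstTg against wt and by 0.95 ± 0.12 (adjusted p = 5.53e-08) in Mst1Gal3 against Gal3Ko.

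Of 18 measured nucleic acid sensors and adaptors, 9 were higher and 2 lower in MstTg against wt, 4 higher and 3 lower in Mst1Gal3 against Gal3Ko, and 6 lower in Mst1Gal3 against MstTg. The shares over all genes were 28.2% higher and 26.8% lower in MstTg against wt, and 26.9% and 25.6% in Mst1Gal3 against Gal3Ko. In Mst1Gal3 against MstTg 2.35% of all genes were lower. With library totals in place of TMM factors 12 of the sensors and adaptors were called in Mst1Gal3 against Gal3Ko. Ddx58, the RNA sensor RIG-I, changed by 0.68 ± 0.09 (adjusted p = 5.49e-08) in MstTg against wt and by -0.71 ± 0.09 (adjusted p = 6.48e-06) in Mst1Gal3 against MstTg. Mavs, the mitochondrial adaptor of RIG-I, was lower in both Mst-1 comparisons, at -1.01 ± 0.08 (adjusted p = 4.25e-12) in MstTg against wt and at -0.93 ± 0.09 (adjusted p = 1.01e-10) in Mst1Gal3 against Gal3Ko. Ikbke, a kinase that activates IRF3 and IRF7, was higher in both, by 1.14 ± 0.16 (adjusted p = 2.06e-07) in MstTg against wt and by 0.84 ± 0.16 (adjusted p = 3.55e-05) in Mst1Gal3 against Gal3Ko. Of 5 negative regulators 1 was higher and 1 lower in MstTg against wt, and none passed the test in Mst1Gal3 against MstTg. The calls in MstTg against wt dropped to 1 without MstTg replicate 2 or 4 or wt replicate 3 or 6, without the libraries with atrial genes, and with the replicate block. Socs1, which binds and inhibits JAK kinases, was higher by 0.53 ± 0.21 (adjusted p = 0.0309) in MstTg against wt, and Pias1, an inhibitor of cytokine signalling, was lower, at -0.18 ± 0.06 (adjusted p = 0.00847). Ptpn6, a phosphatase of leukocytes, was at 0.24 ± 0.14 (adjusted p = 0.142) in MstTg against wt. In Mst1Gal3 against Gal3Ko, where 2 were higher and 1 lower, Socs1 was at 0.65 ± 0.21 (adjusted p = 0.0104), Ptpn6 at 0.34 ± 0.14 (adjusted p = 0.042) and Pias1 at -0.25 ± 0.06 (adjusted p = 0.000566). These 3 calls became 1 with the replicate block and 1 without the libraries with atrial genes.

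Of 57 further interferon-induced genes measured, 32 were higher and 3 lower in MstTg against wt, against 28.2% higher and 26.8% lower over all genes. Against MstTg, 40 were lower in Mst1Gal3 and none was higher, against 2.35% lower and 2.54% higher over all genes. The median log2 fold change there was -0.73. In Mst1Gal3 against Gal3Ko 6 were higher and 19 lower, against 26.9% higher and 25.6% lower over all genes. In the test of the difference of responses 7 passed, all below 0, against 0.367% of all genes called below 0. As single libraries were left out that count lay between 1, without Mst1Gal3 replicate 5, and 16, without MstTg replicate 5, and it moved by over 1.5 times without Mst1Gal3 replicates 1, 3, 4 or 5, MstTg replicates 1 to 7, Gal3Ko replicates 1, 5, 7 or 8 and wt replicates 2, 3, 5 or 6. DESeq2 called 14 and limma-voom 2. The 3 with the smallest p in MstTg against wt were Cxcl10, Psmb10 and Apol9b. Cxcl10, a chemokine of lymphocytes, had 2.30, 5.35, 2.27, 2.49 and 2.23 CPM in the Mst1Gal3 libraries, 1.70 to 3.21 CPM (median 2.62) in MstTg, 0.041 to 0.248 CPM (median 0.156) in Gal3Ko and 0.046 to 0.361 CPM (median 0.212) in wt libraries. Both Mst-1 groups were above both control groups and overlapped each other for Cxcl10. It changed by 3.60 ± 0.33 (adjusted p = 4.92e-11) in MstTg against wt, 4.34 ± 0.32 (adjusted p = 5.38e-13) in Mst1Gal3 against Gal3Ko and 0.22 ± 0.23 (adjusted p = 0.683) in Mst1Gal3 against MstTg. Its control levels are near the floor, where 1 count at the lowest total amounts to 0.0538 CPM. The size of its changes against the controls is therefore imprecise. Psmb10, a subunit of the immunoproteasome, was also called in both Mst-1 comparisons, with 0.89 ± 0.09 (adjusted p = 1.22e-09) in MstTg against wt, 1.12 ± 0.09 (adjusted p = 1.01e-11) in Mst1Gal3 against Gal3Ko and 0.07 ± 0.09 (adjusted p = 0.762) in Mst1Gal3 against MstTg. Apol9b was higher by 3.33 ± 0.39 (adjusted p = 1.05e-08) in MstTg against wt and by 2.82 ± 0.49 (adjusted p = 1.12e-05) in Mst1Gal3 against Gal3Ko, and lower, at -1.49 ± 0.32 (adjusted p = 0.00434), in Mst1Gal3 against MstTg.

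These are bulk samples, in which fewer cells of a type and less RNA per cell cannot be told apart, so marker genes of the cell types of the ventricle are given beside the result. Over all genes, 28.2% were higher and 26.8% lower in MstTg against wt, and 26.9% and 25.6% in Mst1Gal3 against Gal3Ko. In Mst1Gal3 against MstTg the shares were 2.54% and 2.35%. The 3 general leukocyte markers (Ptprc, Coro1a and Laptm5) passed no test in any comparison, and their summed level was 25.0 to 35.3 CPM in Mst1Gal3, 29.2 to 37.3 CPM in MstTg, 25.4 to 34.8 CPM in Gal3Ko and 23.3 to 35.3 CPM in wt libraries. Of 13 measured macrophage markers none passed in Mst1Gal3 against MstTg. There were 2 higher and 1 lower in MstTg against wt, and in Mst1Gal3 against Gal3Ko 2 were higher and 2 lower. Their sum was 294.0 to 365.9 CPM in Mst1Gal3, 280.8 to 347.3 CPM in MstTg, 240.2 to 358.0 CPM in Gal3Ko and 226.9 to 427.7 CPM in wt libraries. Of the markers of plasmacytoid and other dendritic cells, T and NK cells, B cells and neutrophils, 1 of 6, 1 of 8, 0 of 4 and 1 of 5 were in the counts table. The 1 dendritic marker was at 0.611 to 0.832 CPM in Mst1Gal3, 0.646 to 1.04 CPM in MstTg, 0.442 to 1.13 CPM in Gal3Ko and 0.490 to 0.832 CPM in wt libraries, and the T and NK and the neutrophil marker were below 2 CPM in every library. Defining markers such as Siglech, Flt3, Cd3e and S100a8 were not analysed here.

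All 6 fibroblast markers were higher in both Mst-1 comparisons and none passed in Mst1Gal3 against MstTg. Their sum was 1798.6 to 2144.1 CPM in Mst1Gal3 and 2049.5 to 2526.1 CPM in MstTg libraries, against 620.1 to 729.3 CPM in Gal3Ko and 613.9 to 811.3 CPM in wt libraries. Of 7 endothelial markers 6 were lower in MstTg against wt and 5 in Mst1Gal3 against Gal3Ko, with sums of 667.5 to 757.0 CPM in Mst1Gal3, 659.4 to 785.3 CPM in MstTg, 839.1 to 963.4 CPM in Gal3Ko and 870.0 to 1075.2 CPM in wt libraries. Of 7 cardiomyocyte markers 1 was higher and 6 were lower in MstTg against wt, 1 was higher and 5 were lower in Mst1Gal3 against Gal3Ko, and 2 were higher in Mst1Gal3 against MstTg, with all 7 measured. Their sum was 39744 to 49932 CPM in Mst1Gal3, 32884 to 44110 CPM in MstTg, 47582 to 56136 CPM in Gal3Ko and 43656 to 49286 CPM in wt libraries, so the labelled tissue carries its defining markers. Of 5 smooth muscle and pericyte markers 1 was lower in MstTg against wt, 2 were higher and 1 lower in Mst1Gal3 against Gal3Ko and none passed in Mst1Gal3 against MstTg. Fibroblast, endothelial and cardiomyocyte markers thus moved with the Mst-1 genotype, and their part in the changes of the 35 genes in the Mst-1 comparisons was not tested. The part of the 2 cardiomyocyte markers that were higher in Mst1Gal3 against MstTg was not tested in that comparison.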

How the data were processed

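RNA of left ventricles of 26 libraries was measured by RNA sequencing. Per the labels' protocols, ribosomal RNA was depleted and directional NEBNext libraries were made, and per the submitters' processing notes bcl2fastq 2.19.1.403, STAR and featureCounts were used with the mouse build GRCm38. For the annotation, the strand and multimapping settings and the versions of STAR and featureCounts, nothing is stated in the sources used. The authors deposited whole-number counts per gene, not normalized, for 15249 genes in 26 columns. From these counts CPM were computed with TMM factors and log2 fold changes were fitted over all 26 libraries in edgeR 4.0.16 (R 4.3.3, limma 3.58.1), with 1 coefficient per genotype, the robust quasi-likelihood test and Benjamini-Hochberg adjustment over all genes, and an adjusted p under 0.05 was called. The filter on low counts removed 0 genes, since the lowest mean count was 10. The common biological coefficient of variation was 0.114, with 22 residual degrees of freedom. The fits were also run on simulated counts with the same spread for all genes and groups. A spread or scaling that differs between genotypes was therefore not tested there. Sets of genes were described by counts and medians, with no set test.

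The members and lists were chosen with earlier results of these data known. Every member was named, and 32 of the 35 were given by library. Each of these met at least 1 of 3 conditions. It was among the leading genes of a role in MstTg against wt. It passed the test in Mst1Gal3 against MstTg, in Gal3Ko against wt or of the difference of the responses. Or it was not called, or was lower, in MstTg against wt or in Mst1Gal3 against Gal3Ko. Of each pathway list the 3 genes with the smallest p in MstTg against wt were named. A few results for single genes and motifs are not reported here. The labels do not say that same-numbered libraries belong together, so libraries were not treated as paired. Deviations of same-numbered libraries from their group means had correlations of -0.28 to 0.23 (34 pairs, 11 of them over 0.1). Pairs with different numbers were not set beside them, so whether equal numbers share a batch was not tested. Replicates differed beyond sampling noise, with a chi-square per degree of freedom of at least 4.90 for every pair. Alternatives were other size factors, DESeq2 1.42.0, limma-voom with and without quality weights, fits of the compared groups only, no filter, a replicate block and leaving out each library. Leaving out the 6 libraries with atrial genes, the library total as a covariate, and leaving out MstTg replicates 2 and 5 were added after the data were seen. Gene positions are those of GENCODE M21 on GRCm38, and 95% intervals come from the fit.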

Additional observations from a re-analysis of the deposited data

Results flagged for a closer look

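In 8 of the 140 groups of libraries looked at (35 genes in 4 genotypes) 1 library stood apart from the rest of its group by most of the group's range. The nominal rate at which chance puts such groups past this limit is about 1 in 20. That rate was not computed from these data, in which the genes share libraries and vary together. Ifit2 was at 16.8 CPM in Gal3Ko replicate 4, with the nearest Gal3Ko library at 12.7 CPM, and Oasl1 at 5.01 CPM in MstTg replicate 2, with the nearest at 2.94 CPM. Rtp4 was at 5.11 CPM in wt replicate 4 (nearest 3.55 CPM) and Ifi27 at 21.01 CPM in wt replicate 3 (nearest 13.2 CPM). Herc6 stood apart in both knockout groups, low at 3.54 CPM in Mst1Gal3 replicate 4 (nearest 4.28 CPM) and high at 8.17 CPM in Gal3Ko replicate 8 (nearest 5.35 CPM). Bst2 was high at 8.43 CPM in Mst1Gal3 replicate 4 (nearest 5.35 CPM), and Ddx60 low at 6.55 CPM in Mst1Gal3 replicate 2 (nearest 9.01 CPM).

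The response to Mst-1 differed between hearts without and with galectin-3 for 13 genes, by edgeR's test of the difference itself at an adjusted p under 0.05 in the fit over all libraries. Of these, 3 (Usp18, Rtp4 and Cmpk2) kept the call in all 37 alternatives, and Trim30a lost it in 22. The log2 difference was -1.71 for Oasl1, -1.67 for Ifit1, -1.35 for Ifi44, -1.33 for Ifit3, -1.27 for Usp18, -1.06 for Oasl2 and -1.03 for Rtp4. It was -0.98 for Cmpk2, -0.83 for Ifit2, -0.72 for Trim30a, -0.65 for Rnf213, -0.53 for Eif2ak2 and -0.52 for Parp14.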

How the results depend on the processing

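Over 38 alternatives, 27 of the 29 genes called in MstTg against wt and 26 of the 28 called in Mst1Gal3 against MstTg kept their call in every one. The exceptions were Samd9l and Parp10 in MstTg against wt, and Parp9 and Helz2 in Mst1Gal3 against MstTg. The alternative without a filter repeats the main fit, since the filter removed 0 genes. Many of the others left out a library of a group that was not compared. In Mst1Gal3 against Gal3Ko 7 of 14 genes kept their call (Ifit2, Tor3a, Parp10, Trafd1, Rsad2, Cmpk2 and Pnpt1). For the difference of the responses 3 of 13 kept it over 37 alternatives. The number of members called there, 13, was 8 with limma-voom, 8 with quality weights, 5 with the replicate block and 18 with DESeq2. Leaving out 1 library gave 27 to 29 members called in MstTg against wt, 10 to 15 in Mst1Gal3 against Gal3Ko, 26 to 29 in Mst1Gal3 against MstTg and 7 to 18 for the difference. With the replicate block, although the labels do not say that equal numbers pair the libraries, 28, 12, 26 and 0 members were called in MstTg against wt, Mst1Gal3 against Gal3Ko, Mst1Gal3 against MstTg and Gal3Ko against wt.

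With library totals in place of TMM factors Parp14 in Mst1Gal3 against Gal3Ko turned to 0.0143 and Dtx3l to 0.23 (edgeR adjusted p = 0.00905). Over all genes, the count called in Gal3Ko against wt, 54, was 89 with DESeq2, 33 with only those groups, 33 without the libraries with atrial genes and 38 to 80 with 1 library left out. The count called for the difference, 100, was 193 with DESeq2, 51 with the block and 52 to 189 with 1 library left out. The count in Mst1Gal3 against MstTg, 746, was 469 to 1040 with 1 library left out. With only the 2 groups compared, the difference of responses could not be fitted. The causes were not tested. Oasl1 had 6 to 120 counts per library, which limits the precision of its values.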

Other observations

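Values of 4 interferon-induced genes outside the 35, chosen after their values were seen, are given here one by one. Iigp1, which attacks the vacuoles of intracellular parasites, changed by -1.13 in Mst1Gal3 against Gal3Ko (edgeR adjusted p = 7.96e-06) and by -0.92 in Mst1Gal3 against MstTg (adjusted p = 0.00298), and was at -0.08 in MstTg against wt (adjusted p = 0.711). Igtp, of the same family, changed by -0.69 in Mst1Gal3 against Gal3Ko (adjusted p = 0.0038) and by -0.70 in Mst1Gal3 against MstTg (adjusted p = 0.036). Gbp9, a guanylate-binding protein, changed by -0.59 in Mst1Gal3 against Gal3Ko (adjusted p = 0.000141) and by -0.77 in Mst1Gal3 against MstTg (adjusted p = 0.00018). Cxcl9, a chemokine induced by interferon gamma, was lower in Mst1Gal3 against Gal3Ko, at -1.57 (adjusted p = 2.96e-08), in Mst1Gal3 against MstTg, at -0.73 (adjusted p = 0.0273), and in MstTg against wt, at -0.54 (adjusted p = 0.00967). Cxcl10 was higher in Mst1Gal3 against Gal3Ko and in MstTg against wt. All log2 fold changes here come from the fit over all 26 libraries.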
